A study of Mus musculus with 10 samples.

Results

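The proteasome genes described here are the genes of the deposited gene table whose symbols run from Psma to Psmg followed by a digit, without the constitutive catalytic subunits Psmb5, Psmb6 and Psmb7, the immunoproteasome subunits Psmb8, Psmb9 and Psmb10, and the interferon-induced activator subunits Psme1 and Psme2. The symbol rule found 42 of the 18223 genes listed. They were read in 10 RNA-seq libraries of whole subcutaneous tumour tissue of MC38, a mouse colon adenocarcinoma line, with 5 libraries of high tumour burden (HTB) and 5 of low tumour burden (LTB). The treatment label gives 2000000 for HTB and 500000 for LTB, each for 14 days, without naming the unit, and no label gives a tumour size, a mouse strain, an age or a further agent. Separate animals are not stated, so the p-values measure the spread between these libraries, which may be technical.

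The proteasome is the barrel-shaped protease that degrades proteins tagged with ubiquitin. Its core particle is built from outer rings of alpha subunits, which form the gate, and inner rings of beta subunits, a part of which carry the cutting sites. A regulatory particle sits on the end of the barrel, with a base whose ATPase ring unfolds the substrate and a lid that removes the ubiquitin. Dedicated chaperones assemble both particles, and other caps, such as the PA28 rings and PA200, can take the place of the regulatory particle. Interferon gamma exchanges the catalytic beta subunits for their immune forms. The remaining subunits are shared by both kinds of proteasome, and the transcription factor NRF1, product of Nfe2l1, raises their genes together when proteasome activity falls short.

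Because the members encode one machine and moved together from library to library, the bases before their start sites were read from RefSeq (GRCm38.p6) for the 35 of 42 members found in that promoter table. Of 10 short motifs searched on both strands in the 250 bases before the start, the ETS core CCGGAAG was in 13 of these 35 members (37.1%) and in 6.91% of all 32851 promoters of the same length. The CCAAT box was in 14 of 35 (40.0%) against 33.8% of promoters, and the antioxidant response element core TGACNNNGC, the kind of site NRF1 binds, was in 3 of 35 (8.57%) against 10.2%. The interferon-stimulated response element was in 3 (8.57%) against 2.98%. Of the other 6 motifs, the looser antioxidant core TGANNNNGC, which takes in the stricter core, was in 13 (37.1%) against 35.2%, the SP1 box GGGGCGG in 7 (20%) against 21.0%, and the site of nuclear respiratory factor, a different protein from the product of Nfe2l1, in 6 (17.1%) against 3.74%. The MAF and AP-1 composite site, the cyclic AMP response element and the YY1 site were in 0 members, against 0.390%, 1.55% and 0.207% of promoters. The search was chosen after values were seen, the promoter table also holds genes not expressed in these tumours, and a match describes letters only.

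The windows of 4 genes are printed because they show these motifs before genes that passed the test once HTB replicate 2 was left out, as described further on: the core ring gene Psmb3 at chr11:97703184-97703433 (plus strand), the base genes Psmd2 at chr16:20651402-20651651 (plus strand) and Psmd4 at chr3:95042615-95042864 (minus strand), and the lid gene Psmd11 at chr11:80428365-80428614 (plus strand). Each is written 5′ to 3′ on the gene's strand and ends at the base before the RefSeq start, which for Psmd4 and Psmd11 lies inside the deposited gene span. The deposited table lists Psmd4 on the plus strand, and the strand printed here is that of RefSeq. Capitals mark a match, on either strand, to any of 4 motifs: the ETS core, the CCAAT box, the stricter antioxidant core and the interferon-stimulated response element.
Psmb3: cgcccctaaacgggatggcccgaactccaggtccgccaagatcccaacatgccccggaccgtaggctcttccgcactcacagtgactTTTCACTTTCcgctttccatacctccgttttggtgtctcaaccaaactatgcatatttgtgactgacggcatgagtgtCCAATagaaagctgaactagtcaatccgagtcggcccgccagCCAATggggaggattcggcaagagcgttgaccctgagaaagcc
Psmd2: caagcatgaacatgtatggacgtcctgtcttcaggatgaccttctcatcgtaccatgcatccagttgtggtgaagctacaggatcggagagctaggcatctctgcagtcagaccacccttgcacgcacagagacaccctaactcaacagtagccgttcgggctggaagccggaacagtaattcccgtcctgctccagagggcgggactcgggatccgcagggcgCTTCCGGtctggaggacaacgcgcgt
Psmd4: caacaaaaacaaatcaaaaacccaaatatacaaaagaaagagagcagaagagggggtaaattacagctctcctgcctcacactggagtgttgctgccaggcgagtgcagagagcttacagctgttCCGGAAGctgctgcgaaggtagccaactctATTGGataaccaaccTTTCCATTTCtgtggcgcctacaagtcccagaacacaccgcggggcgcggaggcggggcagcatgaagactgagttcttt
Psmd11: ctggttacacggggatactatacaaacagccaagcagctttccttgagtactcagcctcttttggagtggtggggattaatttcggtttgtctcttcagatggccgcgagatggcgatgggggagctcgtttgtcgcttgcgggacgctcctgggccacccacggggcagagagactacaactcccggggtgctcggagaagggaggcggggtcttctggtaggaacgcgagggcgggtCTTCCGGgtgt
Psmd2 and Psmd11 hold the ETS core on the minus strand, at bases -26 to -20 and -11 to -5 counted back from the start. Psmd4 holds it at -125 to -119, with a CCAAT box at -95 to -91 and the interferon-stimulated response element at -80 to -71. Psmb3 holds 2 CCAAT boxes, at -85 to -81 and -43 to -39, and the interferon-stimulated response element at -163 to -154. Among the 11 members that passed without HTB replicate 2, 4 hold the ETS core and 4 a CCAAT box, and of the other 23 tested members with a promoter entry, 9 hold each. The interferon-stimulated response element is in 2 of the 11 and 1 of the 23. Of the genes left out by the rule, 7 had a promoter entry, and 0 of them hold it.

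A pair of libraries stood apart in marker genes, and most members were highest of their group in the same libraries. HTB replicate 2 held the transcripts of other tissues: 10 skeletal muscle markers summed to 14589 counts per 1000000 reads (CPM) there, against 7.90 to 70.8 in the other HTB libraries and 4.09 to 6.97 in LTB. Its 6 adipocyte markers summed to 5069 CPM, against 20.7 to 24.6 and 10.6 to 34.4, its 5 endothelial markers to 296, against 95.6 to 108 and 73.9 to 120, and its 5 erythroid markers to 309, against 47.8 to 71.1 and 15.8 to 32.0. LTB replicate 1 had the highest sums of T cell and macrophage markers, with 190 CPM over 7 T cell markers against 39.4 to 87.4 in the other LTB libraries and 15.7 to 41.2 in HTB, and 2094 CPM over 8 macrophage markers against 1011 to 1580 and 611 to 1038. Of the 8 macrophage markers, 5 were highest of LTB there, Lyz2 alone held 1103 of the 2094 CPM, and Adgre1, C1qa and C1qb were highest in other LTB libraries. The sum of 6 fibroblast markers was the lowest of its group in these same libraries. It was 6829 CPM in HTB replicate 2 against 7621 to 10506 in the rest of HTB, and 5415 in LTB replicate 1 against 6803 to 8000 in the rest of LTB. Col3a1 alone held 4388 and 2991 CPM of these 2 low sums, and the markers did not all go that way. Col1a1 (848 CPM), Col1a2 (965) and Lum (26.1) were highest of all libraries in HTB replicate 2, and Col1a1 (573) was highest of LTB in LTB replicate 1. The epithelial markers that a colon carcinoma might carry were near absent, with Krt8, Krt18, Krt19 and Cldn7 under 10 reads in every library and a sum of 2.64 to 6.78 CPM in HTB and 6.23 to 16.1 in LTB. The part of any of these cell types in the results below was not tested, and in whole tumours fewer cells of a type and less RNA per cell cannot be told apart.

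Genes of the core and regulatory particles were expressed in every library, and none of them passed the test between the burdens with all 10 libraries. Of the 42 members, 40 entered the test, with 180 to 10649 reads in a library, and 0 were called at an adjusted p of 0.05 (quasi-likelihood test of edgeR, Benjamini-Hochberg adjustment over 13469 genes), where 11.4% of all genes were called, 7.51% lower and 3.91% higher. DESeq2 also called 0 of them against 18.0% of all genes, with a smallest adjusted p of 0.0536. With limma voom 0 were called against 11% of all genes, with a smallest adjusted p of 0.0890. At an unadjusted p under 0.05 there were 6 of 40 (15.0%), all lower in HTB, against 29.1% of all genes and 15.2% lower. The authors' deposited table gives 0 members a q under 0.05, and the smallest q is 0.0628, that of Psma5.

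The fold changes were small, and most lay below 0. Log2 fold changes (HTB minus LTB) were below 0 in 35 of 40 members (87.5%), against 47.3% of all genes, with a median of -0.12 against 0.02 over all genes and a range from -0.43 (Psmg4) to 0.10 (Psme4). The 95% interval lay within a 1.5-fold change in either direction for 35 of 40 members (87.5%), against 64.8% of all genes. Intervals tend to be narrower at higher read counts, and 32 of the 40 had a mean over 50 CPM in LTB. All genes were not matched to the members for level, so these shares do not compare their stability. The interval reached past that fold change, on the lower side, for Psma5 (-0.60 to -0.07), Psmb3 (-0.66 to -0.04), Psme2b (-0.66 to 0.05), Psmg3 (-0.66 to -0.0030) and Psmg4 (-0.78 to -0.08). Without LTB replicate 1, the median was -0.07 and 28 of 40 members were below 0. A change larger than 1.5-fold is thus outside the interval for most members, while smaller changes are not settled by 5 libraries a group.

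**Figure D1:**
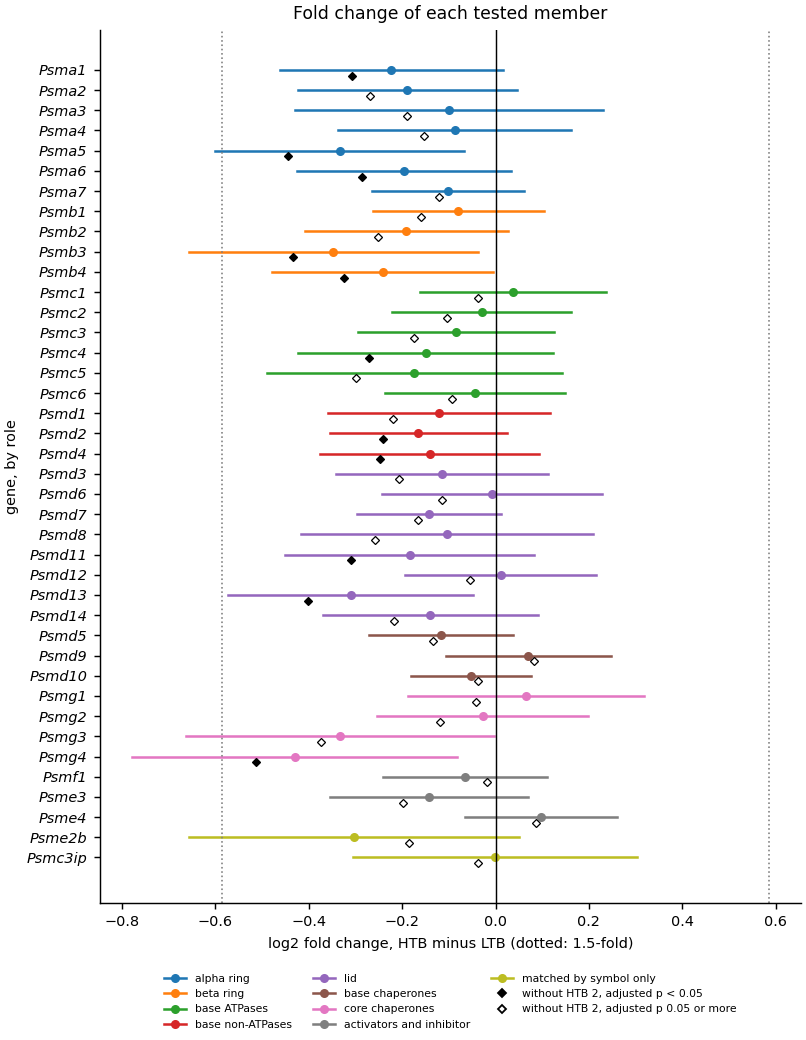
Log2 fold change (HTB minus LTB, x axis) of each of the 40 tested members, by role, with its 95% interval as a bar; diamonds give the fold change without HTB replicate 2, filled where the adjusted p was under 0.05, and dotted lines mark 1.5-fold. No interval lies wholly past a dotted line, 35 of 40 points lie left of 0, and 11 diamonds are filled.

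The alpha ring forms the gate of the core particle, and its 7 tested genes had a median log2 fold change of -0.19. The lead gene was Psma5 (NCBI gene 26442), on chromosome 3 of GRCm38 from 108248909 to 108279952 on the plus strand, a span of whole-gene exons and introns as are all spans given here. It was at 117, 155, 116, 107 and 101 CPM in HTB replicates 1 to 5 and at 179.9, 139, 148, 151 and 133 CPM in LTB replicates 1 to 5. HTB replicate 2 lay among the LTB values, and the other 4 HTB libraries lay below every LTB library. The group means were 119 ± 20.9 and 150.2 ± 18.2 CPM (SD, n = 5 each). The log2 fold change was -0.33 ± 0.12 (SE; adjusted p = 0.0986, edgeR). The other 6 tested alpha genes had fold changes from -0.22 (Psma1) to -0.09 (Psma4). Psma8, which replaces an alpha subunit in germ cells of the testis, had 44 reads over all libraries, 2 to 8 in each. The filter on low counts kept it out of the test.

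The tested beta ring genes, Psmb1, Psmb2, Psmb3 and Psmb4, encode the subunits without a cutting site and had a median of -0.22. Psmb3 (26446; chromosome 11, 97703434 to 97713500, plus strand) had the smallest p among them. It was at 100.1, 135, 107, 103 and 101 CPM in HTB replicates 1 to 5 and at 191, 118, 118, 137 and 131 CPM in LTB replicates 1 to 5. HTB replicate 2 and LTB replicate 1 were each well above the rest of their group, and without HTB replicate 2 the groups did not overlap. The means were 109 ± 14.7 and 139 ± 30.3 CPM, and the log2 fold change -0.35 ± 0.14 (adjusted p = 0.132, edgeR), or -0.21 without LTB replicate 1. Psmb4 stood at -0.24, Psmb2 at -0.19 and Psmb1 at -0.08. Psmb11, the thymic catalytic subunit, had 39 reads over all libraries, 1 to 7 in each, and was not tested.

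The 6 ATPases of the base, which unfold the substrate and thread it into the core, had the smallest median of the structural groups, -0.06. Psmc5 (19184; chromosome 11, 106256185 to 106263112, plus strand) led the group by p. It was at 83.3, 122, 86.2, 86.5 and 77.1 CPM in HTB replicates 1 to 5 and at 131, 83.7, 95.6, 96.9 and 106 CPM in LTB replicates 1 to 5, so LTB replicate 2 sat among the lower HTB libraries. The log2 fold change was -0.17 ± 0.14 (adjusted p = 0.446, edgeR), or -0.30 without HTB replicate 2 and -0.07 without LTB replicate 1. Psmc1 was at 0.04 and the other 4 lay between -0.15 (Psmc4) and -0.03 (Psmc2).

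Psmd1 and Psmd2 are the scaffolds of the base, and Psmd4 is a ubiquitin receptor. Psmd2 (21762; chromosome 16, 20651652 to 20663414, plus strand) was at 307, 405, 345, 311 and 310.3 CPM in HTB replicates 1 to 5 and at 403, 352, 363, 369.9 and 395 CPM in LTB replicates 1 to 5. HTB replicate 2 had the highest value of all 10 libraries, and the other 4 HTB libraries lay below every LTB library. Its log2 fold change was -0.17 ± 0.09 (adjusted p = 0.228, edgeR), beside -0.14 for Psmd4 and -0.12 for Psmd1.

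The lid carries the deubiquitinase Psmd14, its partner Psmd7 and the structural subunits around them, and its 8 genes had a median of -0.13. Psmd13 (23997; chromosome 7, 140882394 to 140898692, plus strand), a structural subunit, was at 57.7, 79.3, 62.3, 59.6 and 57.8 CPM in HTB replicates 1 to 5 and at 95.5, 65.1, 72.5, 75.4 and 84.0 CPM in LTB replicates 1 to 5. HTB replicate 2 was again the exception within HTB. The means were 63.4 ± 9.11 and 78.5 ± 11.7 CPM, and the log2 fold change -0.31 ± 0.12 (adjusted p = 0.115, edgeR). Psmd14 was at 84.2 ± 11.8 and 92.8 ± 9.92 CPM, with a fold change of -0.14, and Psmd12 and Psmd6 were at 0.01 and -0.01.

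**Figure D2:**
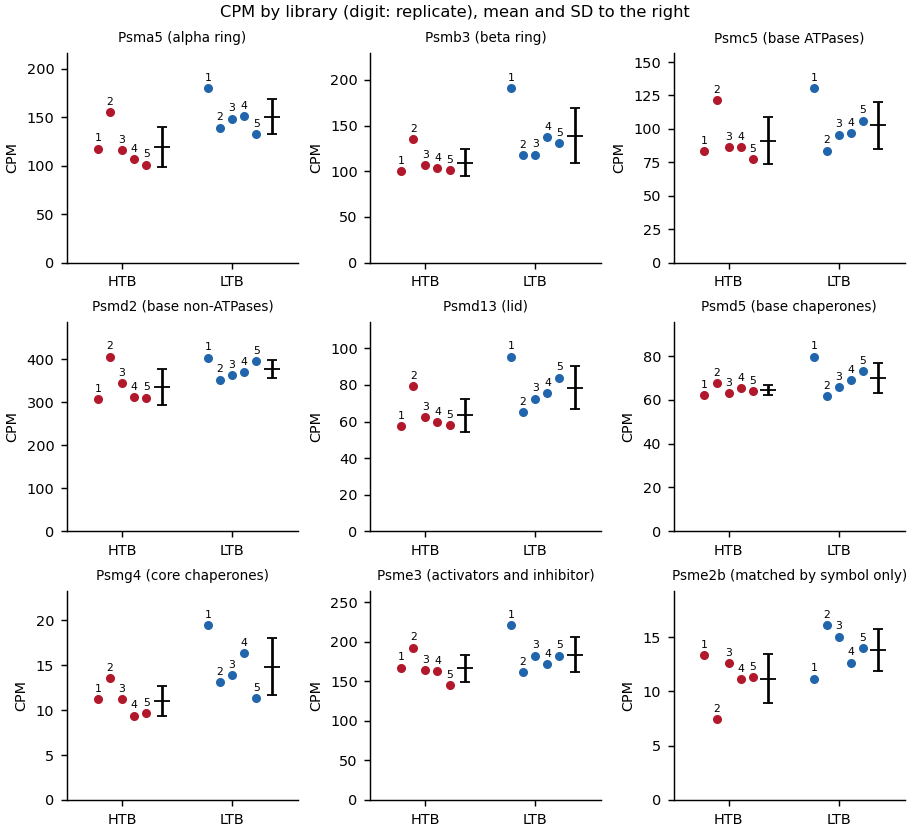
CPM (y axes, from 0) of the member with the smallest p in each of the 9 role groups, 1 point per library with its replicate number, and the mean and SD to the right of each group. In 8 of the 9 genes HTB replicate 2 is the highest HTB point and LTB replicate 1 the highest LTB point; Psme2b is the exception, with HTB replicate 2 lowest.

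The assembly chaperones help to build both particles and leave before the work of degradation starts. Psmd5, Psmd9 and Psmd10 are chaperones of the base, with fold changes of -0.12, 0.07 and -0.05. Psmd5 (66998; chromosome 2, 34850155 to 34870962, minus strand) was at 62.3, 67.8, 63.3, 65.4 and 63.9 CPM in HTB replicates 1 to 5 and at 79.7, 61.9, 65.7, 69.2 and 73.1 CPM in LTB replicates 1 to 5. Its groups overlapped, and its log2 fold change was -0.12 ± 0.07 (adjusted p = 0.294, edgeR), or -0.07 without LTB replicate 1.

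Psmg1 and Psmg2 work as one pair and Psmg3 and Psmg4 as another in building the alpha ring, and the pairs differed in value: 0.07 and -0.03 for the first, -0.33 and -0.43 for the second. Psmg4 (69666; chromosome 13, 34162964 to 34180435, plus strand) was at 11.2, 13.5, 11.2, 9.39 and 9.71 CPM in HTB replicates 1 to 5 and at 19.4, 13.1, 13.9, 16.4 and 11.3 CPM in LTB replicates 1 to 5. Its log2 fold change of -0.43 ± 0.16 was the lowest of the members (adjusted p = 0.102, edgeR), and the groups overlapped through HTB replicate 2 and LTB replicates 2 and 5. Whether the pairs differ was not tested.

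None of the alternative caps and their inhibitor passed the test. Psme3, the subunit of the nuclear PA28 gamma ring (19192; chromosome 11, 101316251 to 101329892, plus strand), was at 167, 193, 165, 163 and 145 CPM in HTB replicates 1 to 5 and at 221, 161, 183, 171 and 183 CPM in LTB replicates 1 to 5. The groups overlapped, and the log2 fold change was -0.14 ± 0.10 (adjusted p = 0.350, edgeR), or -0.07 without LTB replicate 1. Psme4, the PA200 cap, was at 0.10, and Psmf1, the PI31 inhibitor, at -0.06. Psme4 was 1 of 3 members in which neither HTB replicate 2 nor LTB replicate 1 was highest: HTB replicate 5 was, at 145 CPM, and LTB replicate 1 was lowest, at 107 CPM.

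Both remaining members match the rule by symbol and were placed in none of the role groups above. Psme2b (621823; chromosome 11, 48945345 to 48946410, minus strand) is a near copy of Psme2, and its counts were fractional in all 10 libraries, so reads may have been divided with Psme2 and its values are uncertain. It was at 13.3, 7.47, 12.6, 11.2 and 11.3 CPM in HTB replicates 1 to 5 and at 11.2, 16.1, 15.0, 12.6 and 14.0 CPM in LTB replicates 1 to 5, with a log2 fold change of -0.30 ± 0.16 (adjusted p = 0.237, edgeR), or -0.19 without HTB replicate 2. Psmc3ip, a factor of meiotic recombination, had a log2 fold change of -0.0016.

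The members rose and fell together across libraries, whatever the group. HTB replicate 2 was the highest HTB library in 35 of 40 members, against 37.1% of all genes, and LTB replicate 1 the highest LTB library in 35 of 40, against 31.8% of all genes. The pattern is not particular to the members. Psmb5, Psmb6 and Psmb7, left out by the rule, were also highest in these libraries within each group. Psmb8, Psmb9 and Psme1 shared the LTB peak, but HTB replicate 1 was their highest HTB library. The highest of all 10 libraries was LTB replicate 1 in 23 members and HTB replicate 2 in 14, and the lowest was HTB replicate 5 in 20. The members' median log2 deviation from their own means was 0.24 in LTB replicate 1, 0.19 in HTB replicate 2 and -0.22 in HTB replicate 5, while the median over all genes lay between -0.03 and -0.01 in every library. HTB replicate 2 is the library rich in muscle, fat, endothelial and erythroid RNA, and LTB replicate 1 has the highest sums of T cell and macrophage markers. Both have the lowest fibroblast sum of their group, a sum held mostly by Col3a1, while Col1a1 was the highest of its group in both.

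**Figure D3:**
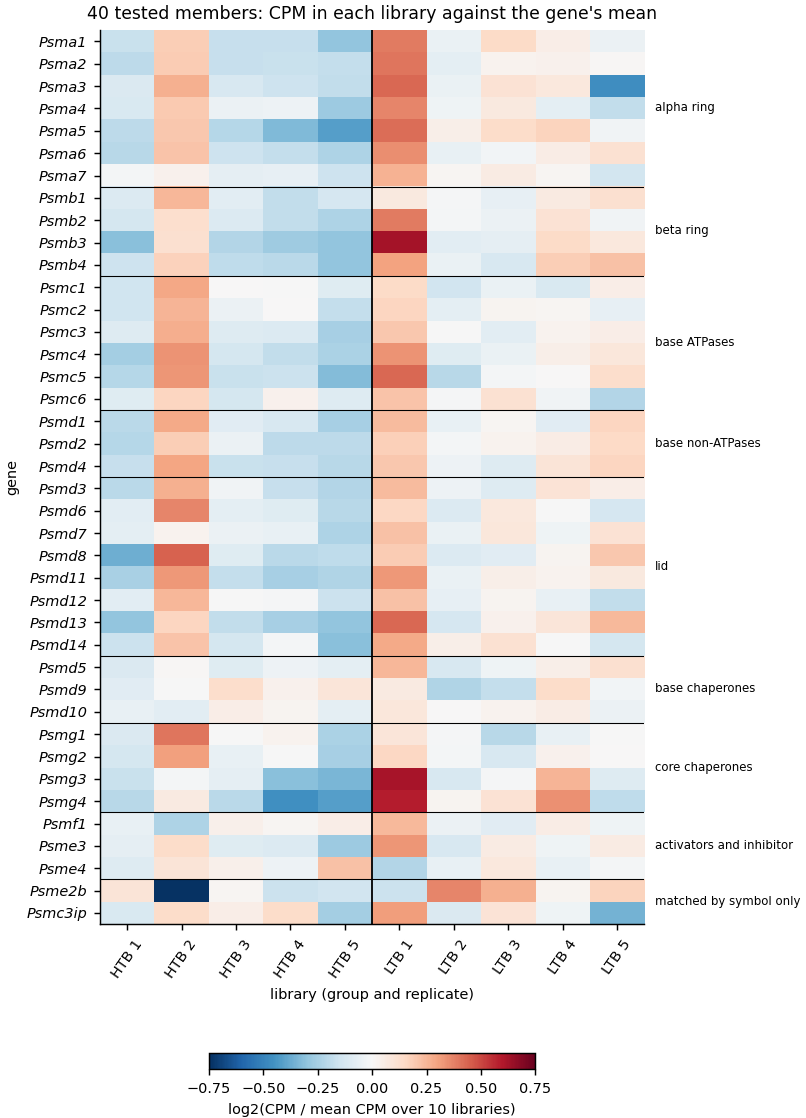
Each row is a tested member, grouped by role, each column a library, and the colour gives log2 of the library's CPM over the gene's mean of the 10 libraries (red higher, blue lower). The columns of HTB replicate 2 and LTB replicate 1 are red in most rows and that of HTB replicate 5 is mostly blue; Psmd10, Psmf1 and Psme2b have their lowest value in HTB replicate 2.

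Without HTB replicate 2 the subunit genes of all 5 structural groups held calls, each of them lower in HTB. There were 11 lower and 0 higher members (27.5%), where 22.4% of all genes were called with 12.7% lower and 9.77% higher. They were Psma1 (-0.31), Psma5 (-0.44) and Psma6 (-0.28) of the alpha ring, Psmb3 (-0.43) and Psmb4 (-0.33) of the beta ring, the ATPase Psmc4 (-0.27), Psmd2 (-0.24) and Psmd4 (-0.25) of the base, Psmd11 (-0.31) and Psmd13 (-0.40) of the lid, and the chaperone Psmg4 (-0.51). Psma5 had the smallest adjusted p, 0.00978, followed by Psmd11 at 0.0189 and Psmd13 at 0.0199 (edgeR). The median over the 40 members was then -0.19, and 38 of 40 were below 0.

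With LTB replicate 1 left out as well, 12 members were lower (30.0%), against 21.6% of all genes called, 12.4% lower and 9.26% higher. The 11 genes remained and Psma2 joined them (-0.18, adjusted p = 0.0277, edgeR), with a median over the members of -0.16. Read as ranges of CPM, 0 of 40 members had groups that did not overlap with all libraries (11.7% of all genes). Without HTB replicate 2 there were 16 of 40 (40.0%), all lower in HTB, against 24.0% of all genes and 12.1% lower. That library was the highest of HTB in 35 of 40 members but in 37.1% of all genes. Leaving it out thus takes away the top HTB value more often for members, and the members move together. These shares, and those of the calls without it, therefore do not test the members against all genes. Leaving out any other single library gave 0 calls among the members, where those fits called 5.42% to 9.36% of all genes.

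Summed over each structural group, the same libraries set the overlap. The 7 alpha genes summed to 949 ± 112 CPM in HTB and 1065 ± 144 in LTB, and the 4 beta genes to 547 ± 66.3 and 629 ± 72.2. The 6 ATPases summed to 691 ± 94.5 and 724 ± 64.5, the 3 base scaffolds and receptor to 680.1 ± 95.3 and 753 ± 54.5, and the 8 lid genes to 1095 ± 149 and 1194 ± 99.1. In each sum HTB replicate 2 was the highest HTB library. The other 4 HTB libraries reached at most 922 CPM for the alpha ring, where LTB began at 927, and at most 534 against 559 for the beta ring, 677 against 699.9 for the base scaffolds and 1083 against 1100.1 for the lid, but 678 against 668 for the ATPases. The ratio of core ring to cap genes was similar in both groups, with a ratio of summed CPM of 0.608 ± 0.017 in HTB and 0.633 ± 0.037 in LTB (n = 5 each) and overlapping ranges.

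Per kilobase of annotated transcript, 5 of the 6 highest genes belonged to the core rings. The highest mean levels over the 10 libraries were those of Psma3 (204 CPM per kilobase), Psma7 (184), Psmd7 (178), Psmb2 (172), Psmb3 (162) and Psma4 (147). The ATPases lay close together, from 51.2 (Psmc6) to 83.3 (Psmc1). The chaperones lay between 15.3 (Psmd5) and 25.7 (Psmg2), Psmf1 at 13.0 and Psmc3ip at 7.94, while Psma8 was at 0.10 and Psmb11 at 0.035. The scale rests on the annotated length: Psma2, at 41.7 the lowest tested alpha gene, has a listed length of 2911 bases, over 3 times that of Psma3 at 859.

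**Figure D4:**
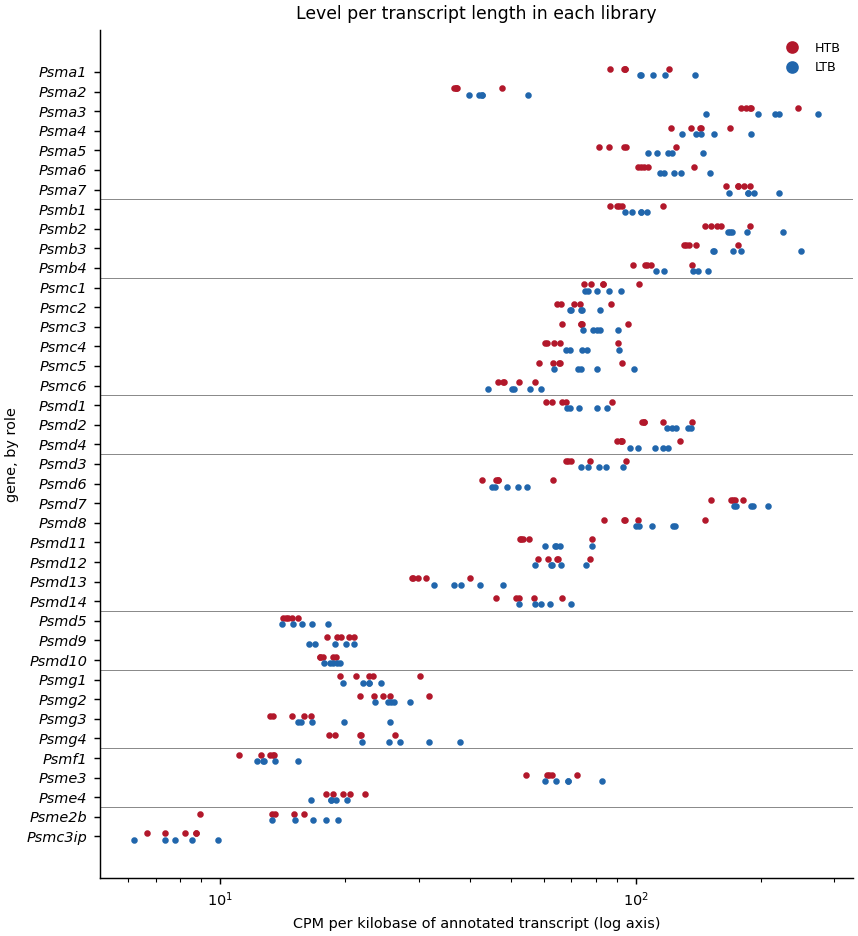
CPM per kilobase of annotated transcript (x axis, log scale) for the 40 tested members by role, 1 point per library, HTB in red and LTB in blue. Core, base and lid genes lie mostly above 30, chaperones mostly below 30, and the colours overlap in every row.

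The genes that the rule leaves out set the scale for these small shifts. Of the 8, 5 were lower in HTB: Psmb9 (-1.96), Psmb10 (-1.43), Psmb8 (-1.33), Psme2 (-1.13) and Psme1 (-0.72), while the constitutive Psmb5, Psmb6 and Psmb7, at -0.20, -0.26 and -0.07, did not pass. The 3 immune catalytic genes summed to 178 ± 33.2 CPM in HTB and 489 ± 94.1 in LTB, and the 3 constitutive ones to 281 ± 50.8 and 316 ± 49.1. These falls were known when a member was set against each of 2 of them within libraries, so the ratios are a description with no test.

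The ratio of Psme3 to Psme1 reads compares the nuclear activator with the interferon-induced one. It was 0.978, 1.15, 1.10, 1.18 and 1.05 in HTB replicates 1 to 5 and 0.690, 0.656, 0.790, 0.645 and 0.912 in LTB replicates 1 to 5, so every HTB library lay above every LTB library. On the log2 scale the means were 0.12 ± 0.11 and -0.45 ± 0.21 (SD, n = 5 each), a difference of 0.57, or 1.49-fold. The ratio of Psmd14, the lid deubiquitinase, to Psmb8, an immune catalytic subunit, was 0.629, 0.916, 0.920, 1.04 and 0.727 in HTB replicates 1 to 5 and 0.316, 0.410, 0.399, 0.347 and 0.368 in LTB replicates 1 to 5. Again the groups did not overlap. The log2 means were -0.26 ± 0.29 and -1.45 ± 0.15, a difference of 1.18, or 2.27-fold. HTB replicate 2 lay inside the HTB range in both ratios. The denominators Psme1 and Psmb8 had CPM ranges that did not overlap between the groups on their own, while those of Psme3 and Psmd14 overlapped. Of all genes, 11.7% had CPM ranges that did not overlap, a share for single genes and not for ratios.

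**Figure D5:**
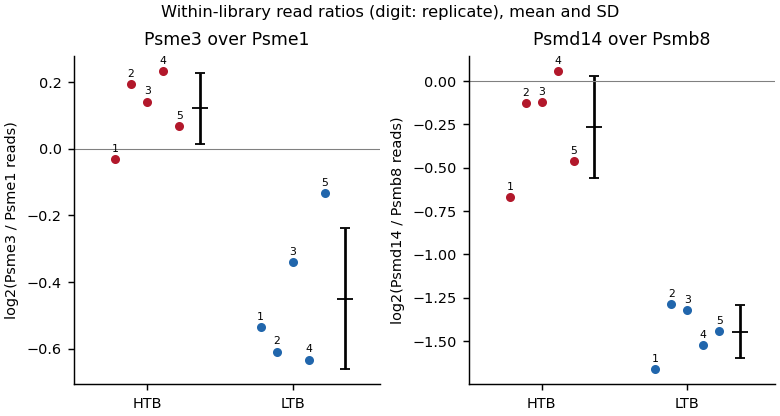
Log2 ratio of reads within each library (y axes) for Psme3 over Psme1 (left) and Psmd14 over Psmb8 (right), 1 point per library with its replicate number, and the mean and SD of each group. All HTB points lie above all LTB points in both panels, and HTB replicate 2 is not at an end of its group.

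Around the proteasome, 6 lists of the ubiquitin route held 48 tested genes. Of these 2 were lower and 2 higher in HTB (8.3%, near the 11.4% of all genes called), with a median log2 fold change of -0.0020. Of 12 subunits and partners under other symbols, 1 was higher: Ube3c, a ligase that works on the regulatory particle (0.22, adjusted p = 0.0441, edgeR). Pomp, the maturation chaperone of the core, had -0.36 (adjusted p = 0.117), and Ecpas, a scaffold of the particle, 0.21 (adjusted p = 0.0538). None of 6 genes for ubiquitin and its activating enzymes passed, nor any of 6 shuttle factors (Ubqln2 0.17, adjusted p = 0.114) or of 7 genes for VCP, the segregase that extracts substrates, and its cofactors (Faf2 0.13 ± 0.05).

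The list for the NRF1 route held a gene in each direction among 8 tested. Ngly1, the enzyme that removes sugar chains from NRF1 and so readies it, was higher (0.28, adjusted p = 0.0381, edgeR): 27.5, 28.6, 29.7, 29.5 and 26.8 CPM in HTB replicates 1 to 5 against 19.9, 24.9, 23.2, 24.3 and 24.8 in LTB replicates 1 to 5. Maff, a small partner protein of NRF1 and its relatives, was lower (-0.47, adjusted p = 0.0186), and Nfe2l1 itself was at -0.10. The call for Ngly1 was lost in 6 and that for Ube3c in 8 of the 10 fits that leave out a single library, with adjusted p up to 0.0949 for Ngly1 and 0.102 for Ube3c. Of 9 peptidases that trim proteasome products, Erap1, which trims peptides for MHC class I in the endoplasmic reticulum, was lower (-0.96), from 117 ± 11.0 CPM in LTB to 60.0 ± 8.07 in HTB (adjusted p = 7.26e-04). Without HTB replicate 2, 15 of the 56 genes in these lists and the group left out by the rule passed (26.8%), 12 lower and 3 higher, against 9 with all libraries; over all genes that fit called 22.4%.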

How the data were processed

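RNA-seq of 10 libraries of whole MC38 tumour tissue was read from the table deposited by the authors, which gives estimated counts per gene and library (GRCm38 per the labels), not scaled to depth. The sources used here do not name the aligner, the counter or its use of strand. Totals were 23070917 to 27185168 reads, and intervals on counts would cover counting error only. Whole numbers (within 1e-09) made up 86.4% of the values, and others were rounded; 38 of 42 members were whole in every library. The authors' deposited log2 fold changes, p-values and q-values, from the same table, are cited only where named.

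Libraries were grouped by the titles and compared with edgeR 4.0.16 in R 4.3.3: TMM factors, the filterByExpr filter, a quasi-likelihood test with group as the only term, Benjamini-Hochberg adjustment over 13469 genes and a threshold of 0.05. CPM used the TMM-scaled totals of the tested genes, and lengths were medians of RefSeq-matched GENCODE M21 transcripts. Ratios of reads within libraries are described; the planned permutation test of them is not given, since the fall of their denominators was known. Alternatives were other scalings, DESeq2 1.42.0, limma 3.58.1 voom, other filters and thresholds, a block for the replicate number, and fits without single libraries or without a pair of them.

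Members and lists were chosen with earlier results of these data known. Named with values in every library was the member of smallest p in each role; from each list the genes that passed (at most the 3 of smallest p) or the 1 of smallest p were named, and other genes after their values were seen. A gene that this rule selects is not reported here. A line without a gene was left out, and 1 symbol on 2 lines was kept apart by gene ID.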

Additional observations from a re-analysis of the deposited data

Results flagged for a closer look

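In 16 members HTB replicate 2 lay far above the other 4 HTB libraries, by a Dixon gap test at the 95% level (critical ratio 0.710): Psma1 (144.668 CPM), Psma2 (138.568), Psma3 (211.358), Psma6 (125.952), Psmb1 (204.76), Psmb3 (135.123), Psmb4 (161.6), Psmc3 (156.371), Psmc4 (130.849), Psmc5 (121.677), Psmd1 (273.484), Psmd4 (166.414), Psmd6 (87.7721), Psmd8 (221.816), Psmd11 (223.684) and Psmd13 (79.3061). In Psma2 (160.591 CPM) and Psmb3 (191.111) LTB replicate 1 lay far above the other LTB libraries. These 18 came from 84 groups of 5 examined, of which chance alone would single out 4.2 if the groups were independent, and the members share their libraries. The share of all genes that this rule would flag was not computed, and HTB replicate 2 was the highest HTB library in 37.1% of all genes. The count of 16 therefore does not set the members apart from other genes. As a share of the group's range, the gap was widest for Psma2 in HTB, where the other 4 libraries lay between 106 and 108 CPM. For Psmd4 the other 4 HTB libraries lay between 117 and 121 CPM. HTB replicate 2 is the library with 14589 CPM of skeletal muscle markers, and the part of that RNA in these values was not tested.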

How the results depend on the processing

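The count of members called was 0 under every other scaling, filter and test tried, under the threshold of 0.01 and with the replicate block. It was 1 (Psma5) at a threshold of 0.1, where 19.4% of all genes were called. The count was 0 to 11 with each library left out in turn (11 without HTB replicate 2, 0 without any other), and 12 without HTB replicate 2 and LTB replicate 1 together. In the pathway lists and the group left out by the rule together, 9 genes were called, 5 of them in that group. They became 7 to 15 with each library left out and 15 without both libraries. A block for the replicate number leaves the ratio differences at 0.572 (Psme3 to Psme1) and 1.18 (Psmd14 to Psmb8) by arithmetic, so it is no check on them. With each library left out they ranged from 0.526 to 0.651 and from 1.10 to 1.29. The numbers do not pair the libraries: same-numbered deviations correlated at 0.0016 to 0.109, and only HTB replicate 1 correlated best with its own number. Of 399 alternative values for 19 named genes, 364 kept direction and side of the threshold, 15 passed that had not, 20 no longer passed, and none turned. Over all genes, the 1537 calls became 388 at a threshold of 0.01, 2619 at 0.1, 971 with the block, 2527 with DESeq2, 3040 without HTB replicate 2 and 736 to 1270 without any other library. Psma8 and Psmb11, at 1 to 8 reads a library, were removed by the filter of the main fit. The fit without a filter on low counts held all 42 members and called 0.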
